A study of Mus musculus with 27 samples.

Results

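The 12 mature microRNAs described here come from 6 hairpins, miR-770, miR-673, miR-493, miR-337, miR-540 and miR-665, that lie closest to the Gtl2 gene in the imprinted Gtl2-Rian-Mirg locus of mouse chromosome 12. They were chosen by name, as both arms of each hairpin, and make up 12 of the 2035 mature microRNA loci in the tables. The samples are CJ7 embryonic stem (ES) cells, a mouse line, that lack Eed (Eed-/-), lack Ezh2 (Ezh2-/-), lack Jarid2 (Jarid2-/-) or are wild-type, all kept in serum with leukemia inhibitory factor and otherwise untreated. The labels list 27 samples, of which 7 are small RNA samples: 2 each for Eed-/-, Ezh2-/- and wild-type and 1 for Jarid2-/-. How the alleles were made, and whether a line is a single clone, is not stated in these sources. The question was whether loss of each protein goes with a different level of these microRNAs.

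MicroRNA genes are transcribed into long precursors in which a hairpin is cut out and diced into a short duplex. One arm of the duplex, 5p or 3p, is usually kept by an Argonaute protein as the guide, while the other is mostly degraded, and bases 2 to 8 of the guide, the seed, pair with target messenger RNAs. At the Gtl2-Rian-Mirg locus (also called Dlk1-Dio3) the noncoding transcripts Gtl2 (Meg3), anti-Rtl1, Rian and Mirg are expressed from the maternal chromosome and are hosts of many microRNAs, and loss of their expression in ES and induced pluripotent cells is known to go with poor developmental potential. Eed and Ezh2 are core subunits of Polycomb repressive complex PRC2, which methylates lysine 27 of histone H3, and Jarid2 is an accessory subunit that helps recruit it.

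Each genotype had a single column of counts, so the differences below lack replicates and genotypes were not tested against each other. No source says whether a column holds 1 sample or pools 2. The wild-type column is the least directly assigned, since its name gives the CJ7 line and no mutant gene. The Eed-/- column is named HEED, and the Jarid2-/- column JUMONJI, an older name of Jarid2. Columns totalled between 8485806 (Jarid2-/-) and 42293019 (Eed-/-) microRNA counts, and levels are counts-per-million of these totals (CPM). Taken as 3 counts in its column, a count of 0 allows a level of up to 0.0709 CPM in Eed-/-, 0.0935 in Ezh2-/-, 0.354 in Jarid2-/- and 0.126 in wild-type. Ranges in parentheses are exact 95% binomial intervals, which cover counting error only and are too narrow, because PCR copies are not independent molecules. The ES cell identity was visible in every column, where miR-290 and miR-302 cluster markers summed to between 322021 CPM (Jarid2-/-) and 374258 CPM (wild-type). No locus carried the listed name miR-292a, so it is not in these sums. Messenger RNA of the deleted genes was not analysed here.

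The 6 hairpins lie on the plus strand within 22678 bp, chr12:110801920-110824597 (mm9). MiR-673 starts 8.29 kb, miR-493 16.5 kb and miR-337 22.1 kb beyond the start of miR-770-5p. The last 3 hairpins sit close together, with 215 bp between miR-337 and miR-540 and 189 bp between miR-540 and miR-665. In the RefSeq annotation of another build, GRCm38.p6, the miR-770 hairpin falls inside the Meg3 gene and the other 5 lie outside it. The mature sequences of the deposited tables follow, 5′ to 3′, with the seed in capitals, to show that the members are distinct microRNAs that share a locus and not a family. The prefix mmu- stands for mouse and is left out elsewhere.
mmu-miR-770-5p: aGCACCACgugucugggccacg
mmu-miR-770-3p: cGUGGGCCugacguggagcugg
mmu-miR-673-5p: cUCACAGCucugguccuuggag
mmu-miR-673-3p: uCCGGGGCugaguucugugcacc
mmu-miR-493-5p: uUGUACAUgguaggcuuuc
mmu-miR-493-3p: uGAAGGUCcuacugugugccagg
mmu-miR-337-5p: gAACGGCGucaugcaggaguu
mmu-miR-337-3p: uUCAGCUCcuauaugaugccu
mmu-miR-540-5p: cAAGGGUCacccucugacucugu
mmu-miR-540-3p: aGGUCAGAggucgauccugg
mmu-miR-665-5p: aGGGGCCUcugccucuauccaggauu
mmu-miR-665-3p: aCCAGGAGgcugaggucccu

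The 12 sequences carried 12 different seeds. Among the other loci of the tables, miR-6985-3p had the seed of miR-673-5p and miR-6915-5p that of miR-540-3p, and neither exceeded 0.80 CPM in any column. No other locus held the first 16 bases of any member, so no second annotated copy was found that could share reads with these microRNAs. Lengths ran between 19 and 26 bases, and the median GC content was 58.4%, against 50% over all 2035 loci. Of the 12 sequences, 10 were identical to the RefSeq mature sequences (GRCm38.p6). The exceptions were both arms of miR-337, which in RefSeq start 3 bases (5p) and 1 base (3p) further along the hairpin and therefore have other seeds.
miR-337-5p in RefSeq: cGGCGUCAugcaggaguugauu
miR-337-3p in RefSeq: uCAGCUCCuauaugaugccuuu
The counts of miR-337 below are those of the deposited annotation. Its RefSeq hairpin, with both deposited arms in capitals, shows where these lie, and that of miR-770 is shown beside it because its arms varied most in use between genotypes.
miR-337 hairpin: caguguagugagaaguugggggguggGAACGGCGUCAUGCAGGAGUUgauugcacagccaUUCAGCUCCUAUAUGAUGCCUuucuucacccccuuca
miR-770 hairpin: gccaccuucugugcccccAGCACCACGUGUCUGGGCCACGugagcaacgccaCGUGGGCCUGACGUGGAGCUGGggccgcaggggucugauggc

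All 6 hairpins were lower in each mutant than in wild-type cells, by 6.13-fold to 9.87-fold in Eed-/-, by 553-fold to 1619-fold in Ezh2-/- and by 9.37-fold to 129-fold in Jarid2-/-. Summed over the 12 members, the level was 844 CPM in Eed-/-, 4.77 CPM in Ezh2-/- and 400.2 CPM in Jarid2-/-, against 6491 CPM in wild-type. These sums rest on 35686 counts in Eed-/-, 153 in Ezh2-/- and 3396 in Jarid2-/-, against 154448 in wild-type. The summed level was thus 7.69-fold (7.60 to 7.78) below wild-type in Eed-/-, 1361-fold (1161 to 1605) below it in Ezh2-/- and 16.2-fold (15.7 to 16.8) below it in Jarid2-/-. In bulk RNA, fewer expressing cells and less RNA per cell cannot be told apart, and the counts do not separate the parental alleles. The scaling moved 2 of these values by over 1.5 times: Ezh2-/- was 821-fold lower with TMM scaling, and Eed-/- was 4.70-fold lower with the denominators of the authors' own reads-per-million.

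**Figure D1:**
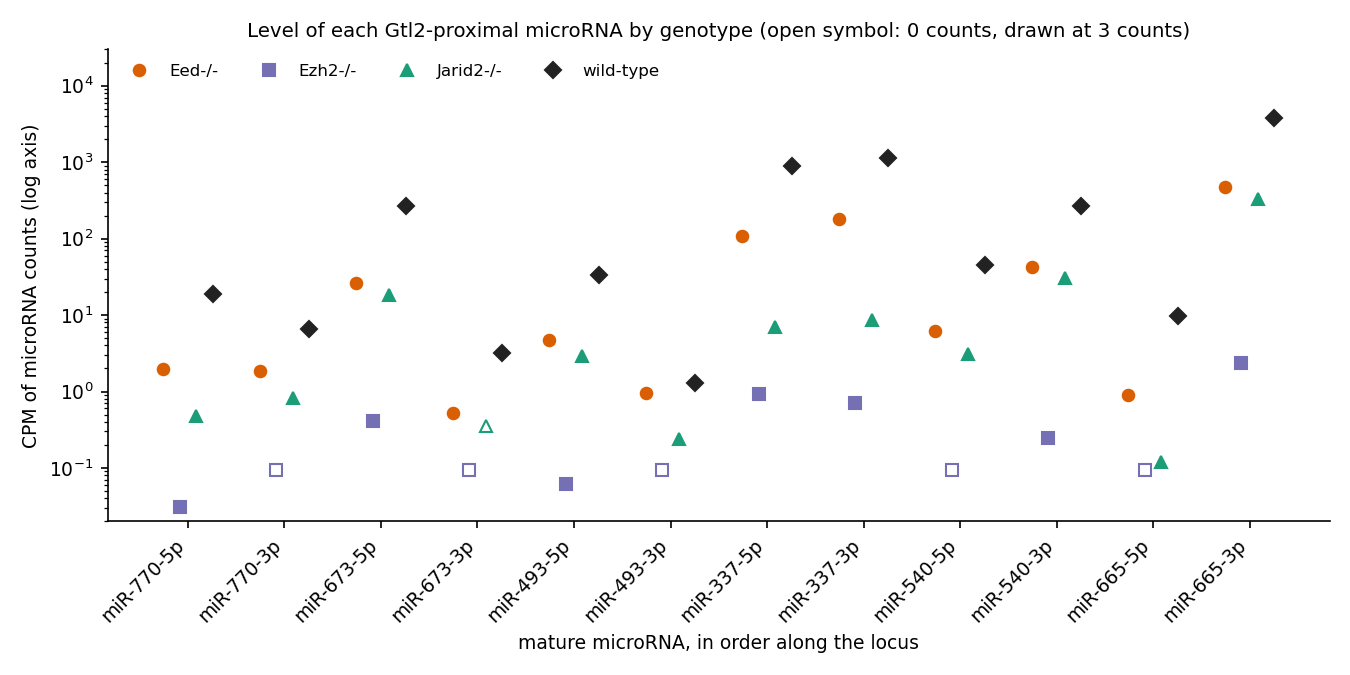
Level of each of the 12 mature microRNAs in counts-per-million of microRNA counts (log axis) in Eed-/-, Ezh2-/-, Jarid2-/- and wild-type cells, 1 column of counts per genotype, with microRNAs in order along the locus. Open symbols mark 0 counts, drawn at the level of 3 counts, so a filled symbol of 1 or 2 counts can stand below an open one. The wild-type symbol is the highest for all 12 and the Eed-/- symbol the second highest.

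All 12 members had at least 10 counts in wild-type and so entered every comparison. With 1 CPM added to both levels before the ratio was taken, a log2 value of -1 or less made a locus count as lower. In Eed-/- cells 11 of the 12 were called lower, against 15% of all 1096 tested loci. In Ezh2-/- cells all 12 were called lower, against 24.5% of 1000 loci, and in Jarid2-/- cells 11 of 12, against 22.8% of 950 loci. The member not called lower in Eed-/- and in Jarid2-/- was miR-493-3p, the least abundant in wild-type. No member was called higher in any mutant. The median log2 ratio of the members was -2.64 in Eed-/-, -5.27 in Ezh2-/- and -3.38 in Jarid2-/-, while that of all tested loci was 0.08, -0.44 and -0.17. The scaling shifted the median of all loci, which for Ezh2-/- lay at 0.09 with TMM. Relative to it the members stood at -2.72 in Eed-/-, -4.82 in Ezh2-/- and -3.21 in Jarid2-/-, or -2.77, -5.20 and -3.14 with TMM.

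MiR-665-3p, the guide arm of the hairpin farthest from Gtl2, was the most abundant member in all 4 columns. Its level was 468 CPM in Eed-/-, 2.37 CPM in Ezh2-/- and 328 CPM in Jarid2-/-, against 3827 CPM in wild-type. Among all loci it ranked 162nd by level in Eed-/-, 574th in Ezh2-/- and 178th in Jarid2-/-, against 34th in wild-type. Its level was 8.17-fold (8.05 to 8.30) below wild-type in Eed-/-, 1615-fold (1290.2 to 2050) below it in Ezh2-/- and 11.7-fold (11.2 to 12.1) below it in Jarid2-/-. In Ezh2-/-, where 76 counts remained against 91052 in wild-type, it had the second lowest log2 ratio of all 1000 tested loci. The added 1 CPM makes this rank favour abundant loci. Without it the miR-665 hairpin had the 9th largest fold in Ezh2-/- among 51 hairpins of the locus with at least 100 wild-type counts. The opposite arm, miR-665-5p, was scarce everywhere, with 38 counts in Eed-/-, 0 in Ezh2-/- and 1 in Jarid2-/-, against 231 in wild-type. Its level was 10.8-fold (7.64 to 15.7) below wild-type in Eed-/-, at least 104-fold lower in Ezh2-/- and 82.4-fold (14.6 to 3268) below it in Jarid2-/-.

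MiR-337 was the hairpin with the largest difference between Jarid2-/- and Eed-/-. MiR-337-3p stood at 181 CPM in Eed-/-, 0.717 CPM in Ezh2-/- and 8.60 CPM in Jarid2-/-, against 1132 CPM in wild-type. MiR-337-5p, nearly as abundant, stood at 108 CPM in Eed-/-, 0.935 CPM in Ezh2-/- and 6.95 CPM in Jarid2-/-, against 881 CPM in wild-type. The 2 arms were second only to miR-665-3p in Eed-/- and in wild-type, but in Jarid2-/- miR-540-3p and miR-673-5p stood above both, and 73 counts of the 3p arm and 59 of the 5p arm remained. MiR-337-3p was 6.24-fold (6.08 to 6.40) below wild-type in Eed-/-, 1578-fold (1051 to 2490) below it in Ezh2-/- and 132-fold (105 to 168) below it in Jarid2-/-. For miR-337-5p the difference was 8.12-fold (7.86 to 8.38) in Eed-/- cells, 942-fold (659 to 1396) in Ezh2-/- cells and 127-fold (98.2 to 166) in Jarid2-/- cells. Among the 950 loci tested in Jarid2-/-, miR-337-3p and miR-337-5p had the second and the third lowest log2 ratio.

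MiR-540 and miR-673 were intermediate in level. MiR-540-3p, its hairpin's guide arm, had 42.3 CPM in Eed-/-, 0.249 CPM in Ezh2-/- and 30.6 CPM in Jarid2-/-, against 271 CPM in wild-type. It was 6.40-fold (6.08 to 6.75) below wild-type in Eed-/-, 1086-fold (551 to 2515) below it in Ezh2-/- on 8 counts, and 8.84-fold (7.80 to 10.0) below it in Jarid2-/-. The guide arm of miR-673, miR-673-5p, had 26.5 CPM in Eed-/-, 0.405 CPM in Ezh2-/- and 18.5 CPM in Jarid2-/-, against a wild-type level of 263 CPM, close to that of miR-540-3p. It was 9.95-fold (9.33 to 10.6) below wild-type in Eed-/-, 650-fold (380 to 1221) below it in Ezh2-/- and 14.2-fold (12.1 to 16.8) below it in Jarid2-/-. In Eed-/- the 2 intervals do not overlap, so miR-673-5p differed from wild-type by more than miR-540-3p did, beyond counting error. Of the minor arms, miR-540-5p had 6.10 CPM in Eed-/-, 0 counts in Ezh2-/- and 3.06 CPM in Jarid2-/-, against 45.1 CPM in wild-type, which puts it at least 482-fold lower in Ezh2-/-. MiR-673-3p had 22 counts in Eed-/- and 0 in both Ezh2-/- and Jarid2-/-, against 76 in wild-type, so that it was 6.14-fold (3.78 to 10.4) below wild-type in Eed-/-, at least 34.2-fold lower in Ezh2-/- and at least 9.03-fold lower in Jarid2-/-.

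MiR-493 and miR-770, the hairpin closest to Gtl2, were the least abundant hairpins. MiR-493, known in human tumour cells as an inhibitor of growth and spread, had its main arm, miR-493-5p, at 4.66 CPM in Eed-/-, 0.0624 CPM (2 counts) in Ezh2-/- and 2.95 CPM in Jarid2-/-, against 33.2 CPM in wild-type. It was 7.13-fold (6.09 to 8.38) below wild-type in Eed-/-, 532-fold (147 to 4404) below it in Ezh2-/- and 11.3-fold (7.58 to 17.5) below it in Jarid2-/-. MiR-493-3p had 41 counts in Eed-/-, 0 in Ezh2-/- and 2 in Jarid2-/-, against 31 in wild-type. After scaling to depth it was 1.34-fold (0.815 to 2.20) below wild-type in Eed-/-, a difference not detectable at this depth and higher, at a log2 ratio of 0.15, with the denominators of the authors' reads-per-million. It was at least 13.9-fold lower in Ezh2-/- and 5.53-fold (1.41 to 47.7) below wild-type in Jarid2-/-. MiR-770-5p had 84 counts in Eed-/-, 1 in Ezh2-/- and 4 in Jarid2-/-, against 453 in wild-type, and was 9.59-fold (7.58 to 12.2) below wild-type in Eed-/-, 611-fold (109 to 24172) below it in Ezh2-/- and 40.4-fold (15.7 to 149) below it in Jarid2-/-. MiR-770-3p had 79 counts in Eed-/-, 0 in Ezh2-/- and 7 in Jarid2-/-, against 156 in wild-type. Its level was 3.51-fold (2.66 to 4.66) below wild-type in Eed-/-, at least 70.1-fold lower in Ezh2-/- and 7.95-fold (3.77 to 20.1) below it in Jarid2-/-.

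The order of the genotypes was the same for every hairpin, with Ezh2-/- the lowest, then Jarid2-/-, then Eed-/-, and wild-type the highest. Jarid2-/- cells held 2.11-fold less (2.04 to 2.18) of the summed members than Eed-/- cells, and Ezh2-/- cells held 177-fold less (151 to 209) than Eed-/- and 83.9-fold less (71.3 to 99.3) than Jarid2-/-. Among the hairpins the largest step between Jarid2-/- and Eed-/- was that of miR-337, which was lower by 18.6-fold (15.7 to 22.3) in Jarid2-/-, with 132 counts, than in Eed-/-, with 12256. For the other hairpins this step ran from 1.43-fold for miR-665 (1.37 to 1.49) to 2.97-fold for miR-770 (1.62 to 6.07), and no interval included 1. Without both arms of miR-337 the summed level in Jarid2-/- was 1.44-fold lower than in Eed-/- and 11.6-fold lower than in wild-type. Conversely, without miR-665-3p, which holds most of the counts, it was 5.19-fold lower than in Eed-/- and 36.8-fold lower than in wild-type. For Ezh2-/- against Jarid2-/-, miR-337 had the smallest step, 9.41-fold (6.80 to 13.2), and the other hairpins 41.6-fold to 138-fold. Without miR-665-3p the summed step was 30.1-fold. With TMM and median-ratio scaling the summed step was 49.7-fold and 53.9-fold, and that of Ezh2-/- against Eed-/- was 97.8-fold and 106-fold. The 3 mutants share the wild-type column, so their differences from it are not independent of one another.

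**Figure D2:**
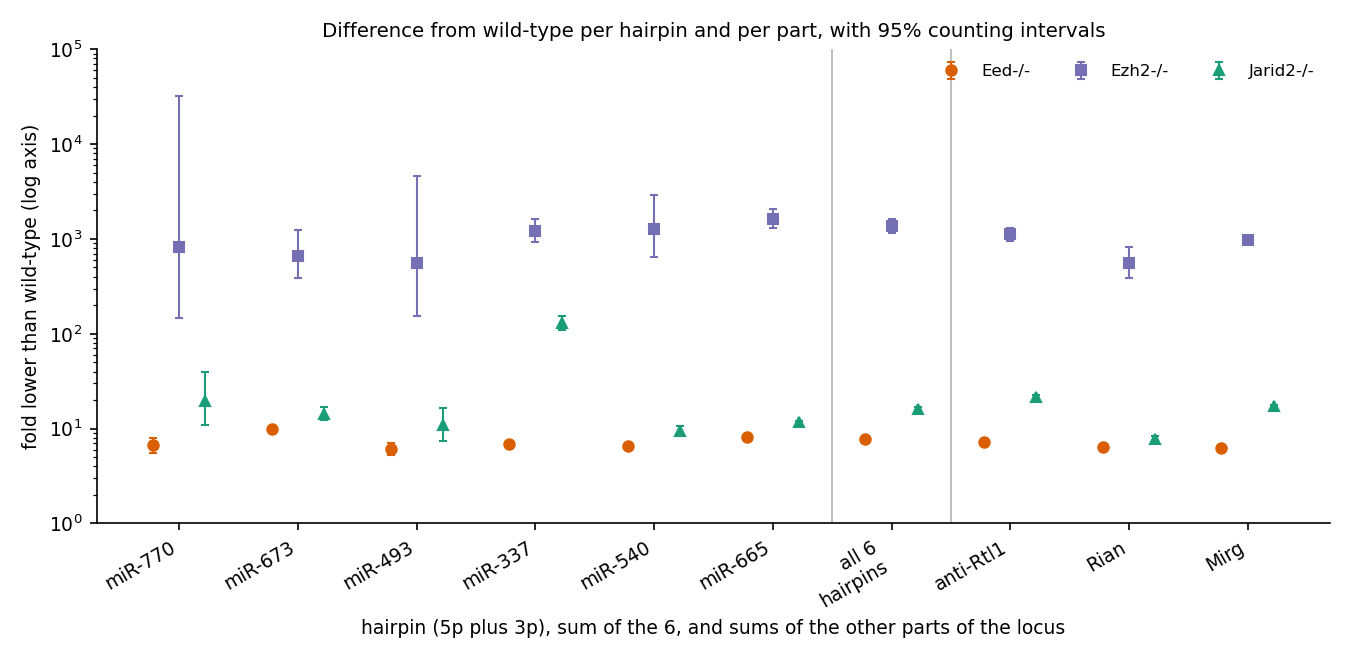
Fold by which each hairpin (5p plus 3p), the sum of all 6 and the sums of the other parts of the locus were lower than wild-type in Eed-/-, Ezh2-/- and Jarid2-/- cells (log axis), with exact 95% counting intervals, 1 column per genotype. The Jarid2-/- symbol of miR-337, at 129-fold, stands away from those of the other hairpins, which lie between 9.37-fold and 19.7-fold.

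The makeup of the summed counts shows the same pattern in a form that does not depend on scaling between columns. MiR-337 supplied 34.3% (33.9 to 34.8) of the summed counts in Eed-/-, 34.6% (27.1 to 42.7) in Ezh2-/- cells and 3.89% (3.26 to 4.59) in Jarid2-/-, against 31.0% (30.8 to 31.2) in wild-type. MiR-665 supplied 55.6% (55.1 to 56.1) in Eed-/- cells, 49.7% (41.5 to 57.9) in Ezh2-/- cells and 81.9% (80.6 to 83.2) in Jarid2-/-, against 59.1% (58.9 to 59.3) in wild-type. These are shares of the same sum, so a lower share of miR-337 by itself raises that of miR-665. The Jarid2-/- column thus differed from the other 3 in its makeup, and the Ezh2-/- column, despite having 153 counts in all, kept the wild-type proportions within its wide intervals for miR-770, miR-493, miR-337 and miR-540. MiR-673 was an exception there, with 8.50% (4.60 to 14.1) in Ezh2-/- against 4.11% (4.01 to 4.21) in wild-type, as was miR-665, both by a small margin between intervals. The ratio of miR-337 to its neighbour miR-540 was 5.99 (5.72 to 6.28) in Eed-/- cells, 6.62 (3.13 to 16.1) in Ezh2-/- cells and 0.462 (0.373 to 0.569) in Jarid2-/-, against 6.37 (6.22 to 6.53) in wild-type. Between miR-540 and miR-665, the next pair, the ratio varied far less, at 0.103 (0.0985 to 0.108) in Eed-/- cells, 0.105 (0.0439 to 0.218) in Ezh2-/- cells and 0.103 (0.0907 to 0.116) in Jarid2-/-, against 0.0823 (0.0804 to 0.0843) in wild-type.

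**Figure D3:**
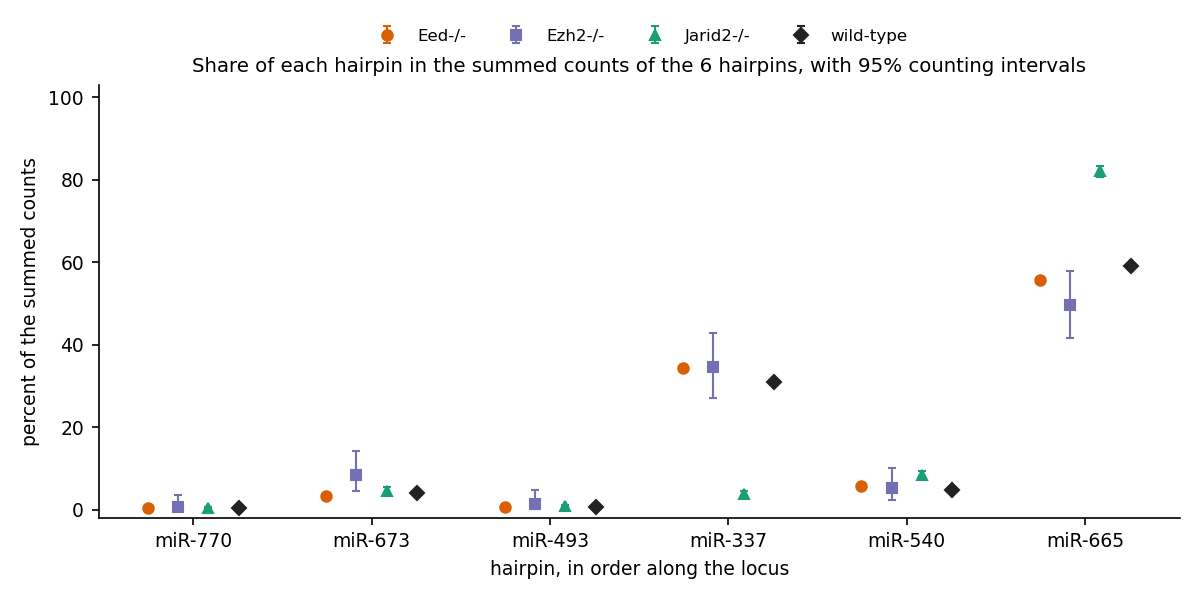
Percent of the summed counts of the 6 hairpins that each hairpin supplied in Eed-/-, Ezh2-/-, Jarid2-/- and wild-type cells, with exact 95% counting intervals. MiR-337 lies between 31.0% and 34.6% in Eed-/-, Ezh2-/- and wild-type and at 3.89% in Jarid2-/-, where miR-665 reaches 81.9%.

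The arms of a hairpin come from 1 precursor, so their shares also need no scaling between columns. In wild-type cells the 5p arm supplied 98.8% of miR-673, 96.2% of miR-493, 74.4% of miR-770, 43.8% of miR-337, 14.3% of miR-540 and 0.253% of miR-665. Arm use therefore ran from almost all 5p to almost all 3p within the group, and miR-337 was the hairpin with the most even use of its arms. For miR-770 the 5p share was 51.5% (43.6 to 59.4) in Eed-/- cells and 36.4% (10.9 to 69.2, from 11 counts) in Jarid2-/-, against 74.4% (70.7 to 77.8) in wild-type. MiR-493 had 82.8% (77.4 to 87.3) in Eed-/- against 96.2% (94.7 to 97.4) in wild-type, and miR-337 had 37.4% (36.6 to 38.3) in Eed-/- against 43.8% (43.3 to 44.2) in wild-type. These intervals do not overlap. Across 274 hairpins with single-copy arms and at least 100 counts in both columns, the median size of the shift between Eed-/- and wild-type was 2.06 percentage points, and 5.11% of them shifted by as much as miR-770 did. For miR-493 that figure was 11.7% and for miR-337 29.2%.

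In Jarid2-/- the 5p shares of miR-540 and miR-665 were also lower than in wild-type beyond counting error. MiR-540 had 9.09% (6.02 to 13.0) in Jarid2-/- against 14.3% (13.5 to 15.1) in wild-type. MiR-665 had 0.0359% (0.000910 to 0.200) in Jarid2-/-, a single count, against 0.253% (0.222 to 0.288) in wild-type. Shifts of these sizes were common between the columns, since 31.2% of 224 hairpins shifted at least as much as miR-540 and 84.8% at least as much as miR-665. MiR-337, whose level differed most in Jarid2-/-, kept a 5p share of 44.7% (36.0 to 53.6) there, an interval that holds the wild-type value of 43.8%. Its arms were thus lower to about the same extent. In Ezh2-/- the counts of most hairpins were too few to place the share, with 56.6% (42.3 to 70.2) for miR-337 and 0% (up to 4.74) for miR-665.

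**Figure D4:**
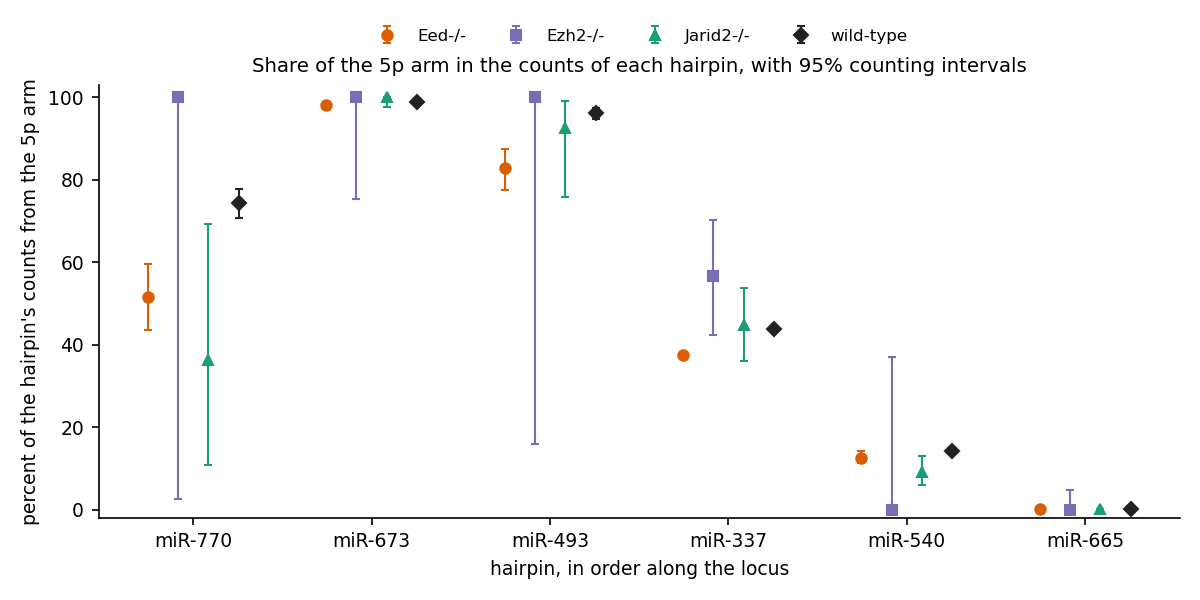
Percent of the counts of each hairpin that came from its 5p arm in Eed-/-, Ezh2-/-, Jarid2-/- and wild-type cells, with exact 95% counting intervals. MiR-770 lies at 51.5% in Eed-/- and 74.4% in wild-type, and miR-337 lies at 44.7% in Jarid2-/- and 43.8% in wild-type.

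The other microRNAs of the locus were compared in position order. Summed by part and relative to wild-type, the Gtl2-proximal members were 7.69-fold lower in Eed-/-, beside 7.14-fold (7.06 to 7.23) for the 11 loci of anti-Rtl1, 6.46-fold (6.23 to 6.71) for the 6 loci of Rian and 6.20-fold (6.18 to 6.23) for the 75 loci of Mirg. In Ezh2-/- the members were 1361-fold lower, beside 1121-fold (959 to 1319), 556-fold (391 to 819) and 964-fold (910.2 to 1021) for those parts in the same order. In Jarid2-/- the members were 16.2-fold lower, beside 21.7-fold (20.8 to 22.7), 7.77-fold (7.15 to 8.45) and 17.5-fold (17.3 to 17.8). The summed difference of the members thus exceeded those of these 3 parts in Eed-/- and Ezh2-/- but not in Jarid2-/-, and the intervals of the members and of anti-Rtl1 overlap in Ezh2-/-. The Eed-/- order leans on single hairpins. There miR-541 held 58987 of the 241893 Mirg counts and was not lower, at a fold of 0.747. MiR-136 held 10363 of the 32494 anti-Rtl1 counts and was 3.36-fold lower. Both draw the sums of their parts towards wild-type, and sums without them were not taken. By the median log2 ratio of single loci the order differed, with the members at -2.64 in Eed-/- and -5.27 in Ezh2-/-. In the same 2 mutants anti-Rtl1 stood at -2.86 and -7.95, Rian at -2.32 and -4.89, and Mirg at -2.53 and -6.60. The pseudocount of 1 CPM limits these medians where loci are scarce. The 4 loci of miR-3070, the next beyond miR-665, had 37 counts in Eed-/-, 0 in Ezh2-/- and 3 in Jarid2-/-, against 179 in wild-type, too few to place them among the other parts. As a share of all plus-strand counts of the locus, the members held 11.4% (11.3 to 11.5) in Eed-/- cells, 10.1% (8.59 to 11.7) in Ezh2-/- cells and 14.6% (14.1 to 15.0) in Jarid2-/-, against 13.5% (13.5 to 13.6) in wild-type. Of the 89 other tested loci of the locus, 77 were called lower in Eed-/-, 86 in Ezh2-/- and 85 in Jarid2-/-, with median log2 ratios of -2.53, -6.61 and -3.49.

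Along the 51 hairpins of the locus with at least 100 wild-type counts, the 6 Gtl2-proximal hairpins lay within the range of the rest in Eed-/-, where folds ran from 0.747 to 25.6 with a median of 7.49. In Jarid2-/- the median was 15.9-fold, and miR-337 had the largest difference of the 51, followed by miR-409 of the Mirg part at 83.8-fold. In Ezh2-/- miR-337 ranked 15th and in Eed-/- 28th. MiR-540 and miR-665, the neighbours of miR-337, were below the Jarid2-/- median at 9.37-fold and 11.7-fold.

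**Figure D5:**
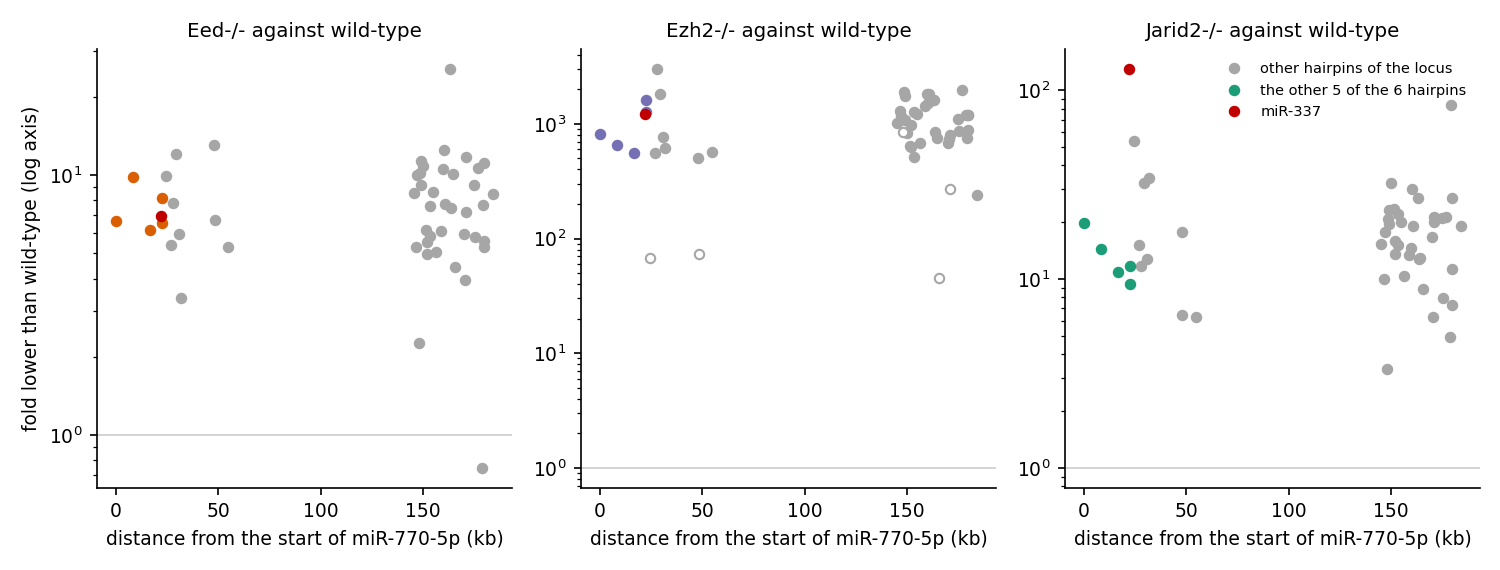
Fold by which each of 51 hairpins of the locus was lower than wild-type (log axis, its own range in each panel) in Eed-/-, Ezh2-/- and Jarid2-/- cells, by distance from the start of miR-770-5p in kb. Open symbols mark hairpins with 0 counts in the mutant, set to 3 counts and so drawn at the lowest fold possible. MiR-337 lies within the range of the others in Eed-/- (6.94-fold) and Ezh2-/- (1218-fold) and above all of them in Jarid2-/- (129-fold).

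The microRNAs whose pattern was most like that of the summed members were sought among 622 other loci with at least 100 wild-type counts, by the Euclidean distance between their 3 log2 ratios against wild-type, again with 1 CPM added. The nearest 5 were miR-376b-3p, miR-376c-3p, miR-154-3p, miR-379-5p and miR-495-3p, at distances of 0.507 to 0.899, and all 5 belong to the Mirg part. The added 1 CPM limits how low a scarce locus can reach, so the search favours abundant loci. These 5 had 31436 to 85950 counts in wild-type. MiR-376b-3p had log2 ratios of -3.38 in Eed-/-, -10.35 in Ezh2-/- and -3.88 in Jarid2-/-, beside -2.94, -10.14 and -4.02 for the summed members. For miR-337 alone, a search added after its values were seen, the nearest locus was miR-409-3p, also of the Mirg part, at a distance of 0.293. Its log2 ratios were -2.91 in Eed-/-, -9.37 in Ezh2-/- and -7.10 in Jarid2-/-, beside -2.79, -9.57 and -6.93 for miR-337. The next nearest, miR-127-3p of anti-Rtl1, lay at 1.80.

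Among loci of other names, those within the span were both arms of miR-3544, annotated on the minus strand opposite miR-337. MiR-3544-5p overlaps miR-337-3p by 19 bases and had 49 counts in Eed-/-, 11 in Ezh2-/- and 1 in Jarid2-/-, against 1 in wild-type. MiR-3544-3p, which overlaps miR-337-5p by 20 bases, had 7 counts in Eed-/-, 3 in Ezh2-/- and 1 in Jarid2-/-, against 2 in wild-type. Reads from the minus strand were thus few in every column, and those of miR-3544-5p were more frequent in Eed-/- and Ezh2-/- than in wild-type while miR-337 on the plus strand was lower. Of the counts of miR-3544-5p and miR-337-3p together, miR-3544-5p held 0.635% in Eed-/-, 32.4% in Ezh2-/- and 1.35% in Jarid2-/-, against 0.00371% in wild-type. The Ezh2-/- share rests on 11 counts of miR-3544-5p.

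Markers of other cell types were present in all columns. Summed over 12 loci, fibroblast and mesenchymal markers stood at 686 CPM in Eed-/-, 707 CPM in Ezh2-/- and 1109 CPM in Jarid2-/-, against 1915 CPM in wild-type, so they too were highest in wild-type. MiR-145a-5p, a smooth muscle and fibroblast microRNA and the most abundant of them in wild-type, stood at 417 CPM in Eed-/-, 462 CPM in Ezh2-/- and 481 CPM in Jarid2-/-, against 1079 CPM in wild-type. MiR-143-3p of the same list stood at 49.9 CPM in Eed-/-, 43.1 CPM in Ezh2-/- and 5.54 CPM in Jarid2-/-, against 179 CPM in wild-type. The size of the difference thus varied within the list, most of all in Jarid2-/-. Neural markers stood at 3447 CPM in Eed-/-, 5434 CPM in Ezh2-/- and 596 CPM in Jarid2-/-, against 3287 CPM in wild-type. They were led by the 3 loci of miR-124-3p except in Jarid2-/-, where these had about 15 CPM each, against about 1014 CPM each in wild-type. The remaining neural loci together stood higher in each mutant than in wild-type, so the low Jarid2-/- sum is that of miR-124-3p. Within each column the 3 loci of miR-124-3p had nearly equal levels, such as 991 to 993 CPM in Eed-/-. If they share reads, the neural sum counts the same reads more than once. Blood markers, mostly miR-150-5p, stood at 4627 CPM in Eed-/-, 9342 CPM in Ezh2-/- and 2870.2 CPM in Jarid2-/-, against 5887 CPM in wild-type. MiR-142-5p of the same list stood at 2.44 CPM in Eed-/-, 134 CPM in Ezh2-/- and 39.2 CPM in Jarid2-/-, against 212 CPM in wild-type. It was thus lower in every mutant, also in Ezh2-/-, where the blood sum was higher. Endodermal markers, led by miR-192-5p, stood at 414 CPM in Eed-/-, 1479.6 CPM in Ezh2-/- and 579.9 CPM in Jarid2-/-, against 597 CPM in wild-type. Muscle markers stood at 40.3 CPM in Eed-/-, 8.95 CPM in Ezh2-/- and 6.72 CPM in Jarid2-/-, against 14.6 CPM in wild-type. Loci named miR-1a-2 had 0 counts in all columns, and those named miR-194-1 had 0 in the 3 mutants. This goes by the name before the arm label, so an arm of the same hairpin under another name is not included. The part of other cell types in the differences of the members was not tested.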

How the data were processed

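Small RNA of 18 to 40 nt from CJ7 mouse ES cells was sequenced on a SOLiD instrument, per the labels' protocols. Cutadapt, Bowtie and mm9 are named in the submitters' processing notes. These give no version or mismatch setting, and nothing says whether replicates were pooled. Per the file headers, the 4 deposited tables hold the read count and the reads-per-million (RPM) of each mature locus of miRBase release 20. Depth ranged from 8485806 to 42293019 microRNA counts, and counting limits precision for scarce arms.

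The 12 members, the other lists and the rules were chosen with earlier results of these data known. Columns named EZH2, HEED and JUMONJI were taken as Ezh2-/-, Eed-/- and Jarid2-/-, and the column undiffCJ7, which names no genotype, as wild-type. CPM was the count scaled to counts-per-million of the column total. Log2 ratios used a pseudocount of 1 CPM, which understates differences of scarce loci, and a locus was tested for a 2-fold difference where either column held 10 counts or more. Folds carry exact conditional binomial and shares Clopper-Pearson 95% intervals, computed with scipy 1.17.1 and tested on simulated data. A count of 0 was set to 3 counts per column for bounds. The planned test across replicates was not run, since each genotype had 1 column. Alternatives were TMM (edgeR 4.0.16), median-ratio factors (DESeq2 1.42.0), totals outside the locus and the miR-290 cluster, the RPM denominators, thinning, other pseudocounts and count minimums, and sums without 1 member or hairpin. The miR-290 cluster was left out by a list of names. No locus carried the listed name miR-292a, so arms of that microRNA under another name stayed in the totals outside both clusters. Alternative scalings were set to a common geometric mean so that the pseudocount kept its size. Named microRNAs were all members, other loci within their span, the 5 nearest by pattern, and the most abundant markers of other cell types. The search around miR-337, the comparison of arm shares over all hairpins and the sum without miR-337 were added after the values were seen.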

Additional observations from a re-analysis of the deposited data

Results flagged for a closer look

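MiR-3544-5p, on the minus strand opposite miR-337-3p, lies outside the listed members and had more counts in 2 mutants than in wild-type. It had 49 counts in Eed-/- against 1 in wild-type, a level 27.6-fold higher (4.72 to 1111). In Ezh2-/- it had 11 counts against 1 in wild-type, 8.16-fold higher (1.19 to 351). With a single wild-type count the size of both ratios is poorly fixed, and neither was tested across replicates.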

How the results depend on the processing

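Every summed difference and every median kept its sign under all alternatives, and the count of members called lower stayed between 8 and 12 wherever the 12 arms were counted singly. With at least 100 counts required, 10 of the 10 arms left were called lower in each mutant, and with arms summed all 6 hairpins were. The summed log2 ratio against wild-type was -2.94 in Eed-/-, -10.41 in Ezh2-/- and -4.02 in Jarid2-/-. In Eed-/- it was -3.07 with TMM, -3.17 with median-ratio scaling, -3.10 with scaling outside both clusters, -2.23 with the RPM denominators, -2.83 without miR-665-3p and -3.02 without miR-337. In Ezh2-/- it was -9.68 with TMM, -9.89 with median-ratio scaling, -9.97 with the RPM denominators and -10.12 without miR-665-3p. In Jarid2-/- it was -4.14 with median-ratio scaling, -4.24 outside both clusters, -3.52 with the RPM denominators, -5.20 without miR-665-3p and -3.54 without miR-337.

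Jarid2-/- against Eed-/-, at -1.08, moved to -0.98 with TMM and with median-ratio scaling, -1.14 outside both clusters, -1.29 with the RPM denominators, -2.38 without miR-665-3p and -0.53 without miR-337. Ezh2-/- against Eed-/-, at -7.47, moved to -6.61 with TMM, -6.73 with median-ratio scaling and -7.73 with the RPM denominators. Ezh2-/- against Jarid2-/-, at -6.39, moved to -5.63 with TMM, -5.75 with median-ratio scaling, -4.91 without miR-665-3p and -6.95 without miR-337.

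The median log2 ratio in Eed-/- moved to -2.76 with TMM, -2.86 with median-ratio scaling, -2.80 outside both clusters, -1.96 with the RPM denominators, -2.84 with a pseudocount of 0.1 and -1.67 with 10. In Ezh2-/- it moved to -5.38 outside both clusters, -4.87 with the RPM denominators, -8.25 and -2.28 with those pseudocounts, -6.54 with at least 100 counts, -7.78 with arms summed and -5.01 without miR-665-3p. In Jarid2-/- it moved to -2.96 with the RPM denominators and to -3.83 and -1.91 with those pseudocounts. The pseudocount bounds these medians, since a level near 0 cannot lie below it. Of 252 values for single members under alternatives, 250 were negative, and the others were those of miR-493-3p in Eed-/-, at 0.15 with the RPM denominators and 0 after thinning. Of 24 thinned 5p shares, 21 stayed within their intervals.

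No paired analysis was possible because each genotype has 1 column, which carries no replicate number. For the same reason no replicate could be left out. Depth limits the minor arms and all Ezh2-/- values, of which 5 of 12 were counts of 0.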
